A study of Mus musculus with 3 samples.

Results

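The cells described here were 367 barcodes of the Day 3 library of a mouse skin wound series, selected on their measured share of fibroblast transcripts. The rule was applied to the Day 3 library alone. A barcode was a member when it held at least 2000 UMIs (unique molecular identifiers, a tag for each mRNA molecule caught), when at most 10% of its UMIs were mitochondrial, when *Dcn*, *Lum*, *Pdgfra*, *Col6a1*, *Col6a2*, *Col5a1*, *Pcolce* and *Col1a2* together made at least 1.5% of its UMIs, and when *Lyz2*, *Tyrobp*, *Fcer1g* and *S100a9* together made less than 0.3%. The members were 12.3% (95% interval 11.2 to 13.6) of the 2974 Day 3 barcodes that met the first 2 limits, and 7.12% of all 5158 barcodes of that library. The series held 44693 barcodes. The 12 genes of the rule were measured values of these same cells, so their levels are given only as a description.

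The study followed healing of skin wounds in C57BL/6J mice, an inbred laboratory strain, by single-cell RNA sequencing (scRNA-Seq) on Days 3, 7 and 14. The 3 groups carried no transgene and no drug treatment and differed by the day of collection. By the study's methods the animals were adult males and the tissue of several punch wounds was pooled for each library, whereas the design text of the series calls the injury incisional. Each day was 1 library. Differences between days thus lack any replicate check, a day cannot be told apart from its library, and no test was made. The same limits kept 6722 cells of the Day 7 library, or 42.7% of 15753, and 7196 cells of the Day 14 library, or 57.0% of 12620. These 2 groups and the 2607 other Day 3 cells (those that met the limits on UMIs and mitochondrial share but not both limits on marker genes) served for comparison. Of the other Day 3 cells, 2011 held at least 0.3% of UMIs from the 4 myeloid genes.

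Fibroblasts make the collagen and proteoglycan framework of the skin. Early in a wound they also act as sentinels: tissue damage, cytokines of the interleukin 1 and tumour necrosis factor families and low oxygen switch on genes for acute phase proteins and for chemokines, the secreted proteins that guide leukocytes. Chemokines with the ELR motif, among them CXCL1 and CXCL5, draw neutrophils through the receptor CXCR2. Later the same lineage lays down and contracts the scar matrix.

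The Day 3 members were deep libraries of single cells. Their median was 45643 UMIs and 6074 genes per cell, against 10557.5 UMIs and 2893 genes in the Day 7 group, 10578.5 UMIs and 2755 genes in the Day 14 group, and 4995 UMIs in the other Day 3 cells. At least 20000 UMIs were found in 89.1% of the members and in 4.45% and 5.04% of the Day 7 and Day 14 groups. The 367 cells therefore carried 18328095 UMIs, or 48.1% of the whole Day 3 library. Depth thus moved with the day, and its part in the ratios below was not tested beyond the values given for a shared depth window. That window held the cells of 20000 to 60000 UMIs of each group. Depth was not matched within it. The deepest cell of the Day 7 group held 40890 UMIs, below the median of 45643 of the members. The barcodes with the highest doublet scores were removed as an alternative, at a preset rate of 0.8% per 1000 barcodes of a library. This took 213 of 5158 Day 3 barcodes (4.13%), 18.3% of the Day 7 library and 13.3% of the Day 14 library. It removed 8 of the 367 members (2.18%), and 1360 (20.2%) and 1220 (17.0%) of the Day 7 and Day 14 groups. As the rate follows library size, these shares do not compare doublets between days. Of the Day 3 barcodes, 43 had a sequence that also occurred on Day 7 and 19 one that occurred on Day 14, and 2 and 1 of these were gated in both libraries. Levels below are CPM, the UMIs of a gene per 1000000 UMIs summed over a group, with 95% intervals that cover counting error only.

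Myeloid transcripts were rare in the members. No Day 3 barcode with enough fibroblast transcripts was turned away by the myeloid limit, whereas 301 were on Day 7 and 240 on Day 14. The highest myeloid share of any member was 0.151% and the median 0.00252%. The 8 fibroblast genes made a median of 2.99% of UMIs per member, with quartiles of 2.30% and 3.70%, against 4.06% on Day 7 and 5.04% on Day 14. The 35 members just inside the limit, at 1.51% to 1.78%, had 939.6 CPM of *Saa3* and 2715 CPM of *Cxcl5*. The 21 cells just outside, from 1.23% up to the limit, had 345 and 2549.8 CPM and a like depth, with medians of 40852 and 40659 UMIs. *Serpinb2* and *Nos2* were at 1181 and 219 CPM just inside the limit and at 878 and 174 CPM just outside.

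Collagen genes that the rule did not use were also high in the members. *Col1a1* and *Col3a1*, the chains of the main skin collagens, stood at 23961 and 18584 CPM in the members and at 1271 and 1036 CPM in the other Day 3 cells. *Prrx1*, a transcription factor of limb and skin mesenchyme, stood at 627 against 93.4 CPM. *En1*, which marks the fibroblast lineage of the back skin, stood at 133 against 19.7 CPM. In cells of 20000 to 60000 UMIs the log2 ratios of *Col1a1* and *Col3a1* were 1.85 and 1.85, while those of *Prrx1* and *En1* went from 2.75 and 2.75 to 0.46 and 0.44, under 2-fold. Only 46 other Day 3 cells had that depth, 20 of them with at least 1% fibroblast UMIs and 9 with at least 0.3% myeloid UMIs. In ratios to the other Day 3 cells at that depth, here and below, depth and kind of cell thus cannot be told apart. Markers of other cells were low. The 5 T cell markers summed to 0.218 CPM with *Cd3e*, *Cd3g* and *Cd3d* at 0 UMIs, the 4 mast cell markers to 0.491 CPM, the 5 endothelial markers to 6.22 CPM, the 7 keratinocyte markers to 10.0 CPM with *Krt5* at 0, the 4 Schwann cell markers to 5.57 CPM and the 5 pericyte markers to 21.9 CPM. A count of 0 in 18328095 UMIs allows up to 0.164 CPM. The 8 macrophage markers summed to 109 CPM, the 7 neutrophil markers to 63.6 CPM and the 5 dendritic cell markers to 37.0 CPM. Of single members, 1 held 0.739% of its UMIs from pericyte markers, and the highest share from contractile genes was 3.09%.

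The 4 genes by which these cells had been singled out earlier were *Saa3*, *Cxcl5*, *Serpinb2* and *Nos2*. Each was highest in the members among the 4 groups, although in the shared depth window *Nos2* was not above the other Day 3 cells. Since the members were proposed with these levels known, they are a description. *Saa3*, an acute phase apolipoprotein made outside the liver, reached 5971 (5935 to 6006) CPM in the members, 584 CPM on Day 7, 45.7 CPM on Day 14 and 150.0 CPM in the other Day 3 cells. *Cxcl5*, a neutrophil attractant, reached 2189.8 (2168 to 2211) CPM, against 177, 17.4 and 376 CPM in the same order. Both fell into the order Day 3, Day 7, Day 14, with intervals for counting error that did not overlap. *Serpinb2*, the plasminogen activator inhibitor PAI-2, reached 1288 (1271 to 1304) CPM, against 109, 18.9 and 124 CPM. *Nos2*, the inducible nitric oxide synthase, was the scarcest at 152 (146 to 158) CPM, against 10.8, 0.290 and 35.4 CPM. The Day 3 over Day 7 ratios on the log2 scale were 3.35 (3.34 to 3.37) for *Saa3*, 3.63 (3.60 to 3.66) for *Cxcl5*, 3.56 (3.53 to 3.60) for *Serpinb2* and 3.81 (3.70 to 3.93) for *Nos2*. In cells of 20000 to 60000 UMIs on both days (220 and 299 cells) these log2 ratios were 2.98, 3.34, 3.22 and 3.29.

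**Figure D1:**
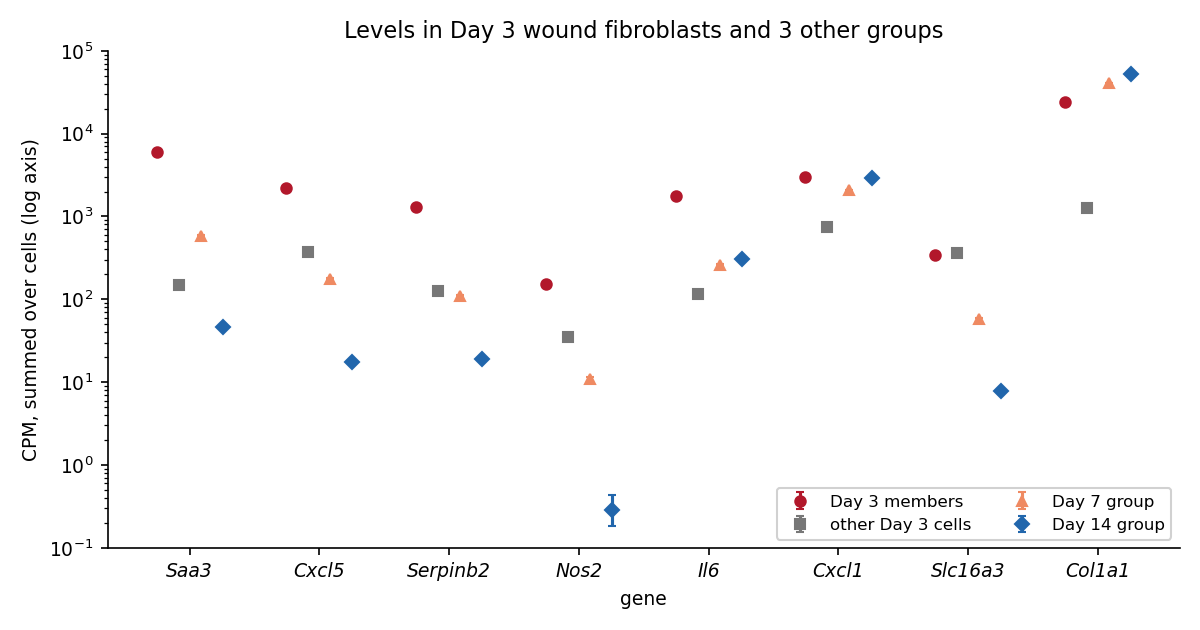
CPM (log axis) of 8 genes in the Day 3 members, the other Day 3 cells and the Day 7 and Day 14 fibroblast groups; points are sums over cells and bars are exact Poisson 95% intervals. *Saa3*, *Cxcl5*, *Serpinb2* and *Nos2* are highest in the Day 3 members and fall from Day 7 to Day 14, whereas *Cxcl1* lies between 2076 and 3007 CPM in all 3 fibroblast groups.

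The letters upstream of some of the genes named in this text are shown as a description. They include genes that did not set the members apart from the other Day 3 cells. *Slc16a3* and *Pgk1* stood at 92.9% and 111% of their levels in those cells. What switched any of these genes on was not tested. RefSeq promoter windows (GRCm38.p6) ran from 250 bases before to 50 after a transcription start, and only the 250 bases before it were searched. The search, on both strands, was for GGNNTTTCC, the core of the motif bound by NF-kappaB factors, TTNNGNAA, read by C/EBP factors, TGANTCA, read by AP-1 factors, and ACGTG, the core read by HIF factors. Capitals mark the match in the lines below, which run 5′ to 3′ along the strand of the gene.
Saa3 GGNNTTTCC match, 187 bases before the start, chr7:46715835-46715883, minus strand: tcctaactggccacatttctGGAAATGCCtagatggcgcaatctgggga
Saa3 TTNNGNAA match, 99 bases before the start, chr7:46715748-46715795, minus strand: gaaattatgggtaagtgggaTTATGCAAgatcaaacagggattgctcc
Il6 GGNNTTTCC match, 43 bases before the start, chr5:30013051-30013099, plus strand: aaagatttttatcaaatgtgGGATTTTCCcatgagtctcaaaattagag
Cxcl1 GGNNTTTCC match, 70 bases before the start, chr5:90891155-90891203, plus strand: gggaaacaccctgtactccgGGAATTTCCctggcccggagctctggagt
Serpinb2 TGANTCA match, 94 bases before the start, chr1:107511309-107511355, plus strand: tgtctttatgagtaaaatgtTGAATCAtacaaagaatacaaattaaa
Slc16a3 ACGTG match, 27 bases before the start, chr11:120949020-120949064, plus strand: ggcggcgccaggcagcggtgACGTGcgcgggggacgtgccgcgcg
Pgk1 ACGTG match, 150 bases before the start, chrX:106186930-106186974, plus strand: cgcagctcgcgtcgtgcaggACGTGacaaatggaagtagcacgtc
The *Saa3* match to GGNNTTTCC is on the opposite strand and overlaps a match to TTNNGNAA. The letters GGNNTTTCC occurred in 4.93% of all 32851 windows, TTNNGNAA in 36.8%, TGANTCA in 6.75% and ACGTG in 16.6%. Among windows of the acute phase and NF-kappaB list, 9 of 27 held GGNNTTTCC, as did 3 of 6 windows of the neutrophil-attracting CXC chemokines and 0 of 36 of the glycolysis and hypoxia genes. ACGTG was held by 19 of 36 windows of the glycolysis and hypoxia genes and by 2 of 27 of the acute phase list, but also by 7 of 14 of the fibroblast lineage genes. The acute phase and NF-kappaB list and the glycolysis and hypoxia list were made of genes with such roles already known. Their counts of letters thus describe the lists and not the members. A match is a description of letters and not a binding site. *Cxcl5*, *Nos2* and *Csf3* had no entry.

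Most members held more than 1 of the 4 genes. Every cell was thinned to 2000 UMIs so that depth was equal, and 74.9% (70.2 to 79.3) of the members then held a UMI of at least 2 of the 4 genes, against 6.05% on Day 7 and 0.208% on Day 14. At least 3 of the 4 were found in 43.1% of members, in 1.13% of the Day 7 group and in 0 of 7196 Day 14 cells, which by the limit of 3 counts allows a share of up to 0.0417%. In droplet data free RNA gives some UMIs to every cell. The myeloid Day 3 cells, with a median of 5183 UMIs before thinning, held at least 2 of the 4 genes in 1.44% and at least 3 in 0.149%. Other Day 3 cells that were not myeloid were not scored in this way. Whether holding several of the 4 genes was particular to the members within Day 3 was thus not tested. For *Saa3* alone the thinned share was 72.8% of members and 12.8% of the myeloid cells of the same library, and without thinning it was 93.5% and 23.3%. The Day 7 share for *Saa3* was 12.9%, and its CPM on Day 7 was 584 against 150.0 in the other Day 3 cells. No such share was made for other cells of the Day 7 library, so the Day 3 myeloid share is no background for Day 7. Whether the *Saa3* UMIs of the myeloid cells were free RNA or their own was not tested. For *Cxcl5* the thinned shares were 68.4% of members, 4.23% of the myeloid cells and 11.3% of the Day 7 group. For *Serpinb2* they were 61.9%, 2.88% and 8.54%, and for *Nos2* 18.8%, 1.74% and 1.53%.

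**Figure D2:**
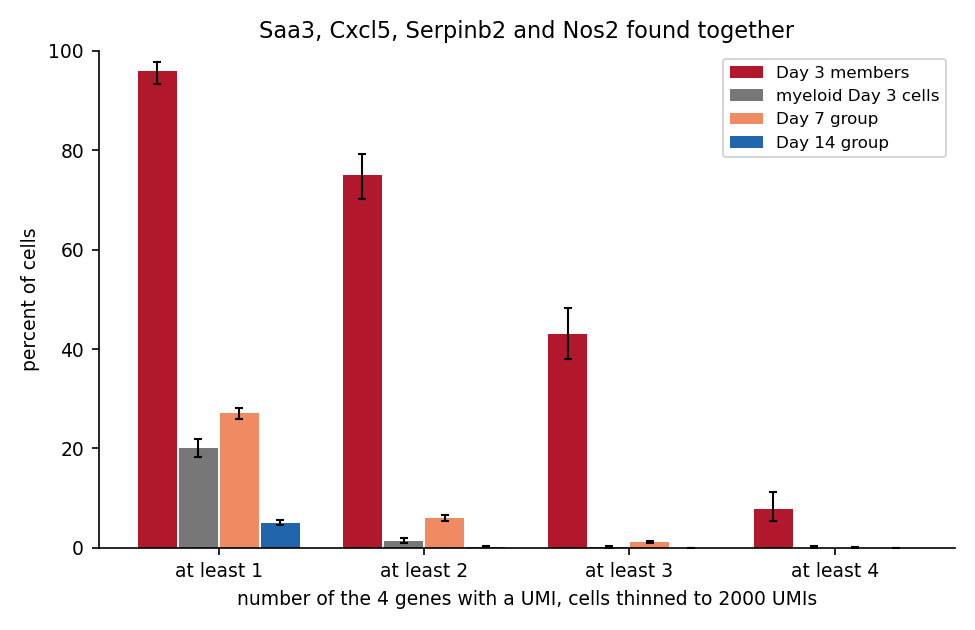
Percent of cells (linear axis) with a UMI of at least 1, 2, 3 or 4 of *Saa3*, *Cxcl5*, *Serpinb2* and *Nos2* after thinning each cell to 2000 UMIs; bars are Clopper-Pearson 95% intervals. The Day 3 members hold at least 2 in 74.9% of cells, and the myeloid Day 3 cells in 1.44%. Other Day 3 cells that were not myeloid are not shown.

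Across all genes, 3198 reached 50 CPM in the Day 3 or the Day 7 group. Of these, 333 (10.4%) were at least 2-fold higher in the Day 3 members and 191 (5.97%) at least 2-fold lower. Against Day 14, 720 of 3263 genes (22.1%) were at least 2-fold higher and 295 (9.04%) at least 2-fold lower. The median log2 ratio of all tested genes was 0.25 against Day 7 and 0.37 against Day 14, and list medians are to be read beside these. The shares in percent are the background for the counts of each gene list below, and a gene that reached 50 CPM in 1 of the 2 groups only had to be higher in that group, so such genes support no direction. Of the genes 2-fold apart, 63.5% were higher on Day 3 against Day 7 and 70.9% against Day 14. Scaling without the 50 most abundant genes gave 47.6% and 58.6%, and scaling by the median of ratios gave 46.1% and 51.4%. Both comparisons share the Day 3 members. Of the 2999 genes tested in every comparison, 303 were at least 2-fold above both later groups, and 175 of these were also at least 2-fold above the other Day 3 cells, while 6 were at least 2-fold below them. Of all 4039 genes tested against the other Day 3 cells, 879 (21.8%) were at least 2-fold higher in the members and 1106 (27.4%) at least 2-fold lower, and these counts share the same members.

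The largest Day 3 over Day 7 ratios outside the genes of the rule belonged to *Car4*, *Lmcd1*, *Erfe*, *Csf3*, *Ccl5*, *Nos2*, *Cxcl5*, *Serpinb2*, *Cyp26b1*, *Saa3*, *Rsad2* and *Thbd*. *Car4*, a membrane-bound carbonic anhydrase, was at 189 (183 to 195) CPM in the members, 2.85 on Day 7 and 0.0630 on Day 14, a log2 ratio of 6.05 (5.85 to 6.26) to Day 7. It was found in 67.0% of members before thinning and in 1.93% of the Day 7 group. *Lmcd1*, a LIM domain protein of the nucleus, was at 66.2, 1.72 and 1.15 CPM. *Erfe*, which encodes the hormone erythroferrone, was at 55.1, 2.23 and 0.202 CPM. *Csf3*, the growth factor that drives neutrophil production, was at 116, 5.65 and 3.81 CPM, and its UMIs came from a minority, since 277 of the 367 members had none. *Cyp26b1*, which breaks down retinoic acid, was at 78.9, 7.42 and 20.7 CPM. *Thbd*, the thrombin receptor thrombomodulin, was at 317, 35.9 and 34.3 CPM.

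*Ccl5* rested on very few cells. Its 74.5 CPM in the members, against 3.95 on Day 7, came from 6 cells, and 361 members had no UMI of it. *Rsad2*, an interferon-induced antiviral enzyme, was at 122 CPM against 13.1 and 6.92, with 90.4% of its UMIs in the highest 10% of the members. The sums of these 2 genes thus do not describe most members.

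The lowest Day 3 over Day 7 ratios were those of *Mest*, *C1qtnf3*, *Mgp*, *Pltp*, *Ptn*, *Angptl1*, *C1qb*, *Hmcn1*, *C1qc*, *Mdk*, *Apoe* and *Prss35*. *Mgp*, an inhibitor of matrix calcification, was at 5.13 CPM in the members, 155 CPM on Day 7 and 1252 CPM on Day 14. *Ptn* and *Mdk*, the related growth factors pleiotrophin and midkine, were at 13.0 and 8.18 CPM on Day 3, 342 and 128 CPM on Day 7, and 357 and 291 CPM on Day 14. *Mest*, an imprinted gene of growing mesenchyme, was at 1.25, 51.9 and 94.9 CPM. *C1qtnf3*, a secreted C1q-like protein, was at 5.18, 212 and 452 CPM. *C1qb*, *C1qc*, *Apoe* and *Pltp* are abundant in macrophages, and they stood at 591, 505, 3605 and 287 CPM in the other Day 3 cells. The 8 macrophage markers summed to 109 CPM in the members, 415 on Day 7 and 237 on Day 14, and their part in these 4 low ratios was not tested.

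Against Day 14 the highest ratios were those of *Car4*, *Nos2*, *Erfe*, *Saa3*, *Cxcl5* and *Serpinb2*, and the lowest those of *Krt1*, *Igfbp2*, *Tnmd*, *Mgp*, *Fbln7* and *Dlk1*. *Dlk1*, an imprinted regulator of fat cell and fibroblast precursors, was at 0.273 CPM in the members, 49.1 on Day 7 and 57.3 on Day 14. *Tnmd*, a tendon gene, was at 0.218, 2.15 and 62.7 CPM. *Fbln7*, an adhesion protein, was at 0.6002, 23.7 and 137 CPM. *Igfbp2* and *Krt1* rested on 2 and 1 UMIs in the members, for log2 ratios to Day 14 of -9.41 (-12.45 to -7.55) and -9.93 (-15.23 to -7.45). *Krt1* is a keratin of the upper epidermis, and the 7 keratinocyte markers summed to 299 CPM in the Day 14 group.

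Acute phase and NF-kappaB target genes were mixed rather than uniformly high. Of the 17 tested against Day 7 (of 26 listed), 8 were at least 2-fold higher and 2 at least 2-fold lower, with a median log2 ratio of 0.95, where 10.4% and 5.97% of all genes were. Without *Saa3*, by which the cells had been singled out, the counts were 7 and 2 of 16, with a median of 0.78. Of the 8 and the 2, 1 each reached 50 CPM in 1 group only, the lower one being *Icam1*. Against Day 14 the counts were 6 and 2 of 16, with a median of 0.90, beside 22.1% and 9.04% of all genes. Without *Saa3* they were 5 and 2 of 15, with a median of 0.86. Of the 6, 2 passed the 50 CPM filter through Day 3 alone, and of the 2, *Icam1* passed through Day 14 alone. *Il6*, the cytokine that drives the liver's acute phase response, was at 1744 (1725 to 1764) CPM in the members, 259.8 on Day 7, 309 on Day 14 and 116 in the other Day 3 cells. *Ptx3*, a soluble pattern recognition protein, was at 2529.7, 819, 911 and 114 CPM in that order. *Lif*, a cytokine of the same family as IL-6, was at 181, 33.1 and 13.8 CPM, and *Il33*, an alarmin kept in the nucleus, at 556, 153 and 148 CPM. Inhibitors that NF-kappaB induces as feedback differed less. *Nfkbia* was at 1803, 1620.0 and 1734 CPM, and *Tnfaip3* at 382, 190.2 and 156 CPM. *Icam1*, the leukocyte adhesion molecule, and *Irf1*, an interferon-induced factor, were the 2 genes at least 2-fold lower, at 46.9 and 63.5 CPM on Day 3, 97.5 and 160.3 on Day 7 and 274 and 230.3 on Day 14.

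*Il1a*, *Il1b* and *Tnf*, cytokines that start inflammation, and *Osm*, a cytokine of the IL-6 family, were scarce in the members, whereas *Il33*, a relative of *Il1b*, stood at 802% of its level in the other Day 3 cells. *Il1b* was at 32.2 CPM in the members and 2839 in the other Day 3 cells, which is 1.13% of that level. For *Il1a* this share was 2.18%, for *Tnf* 1.09% and for *Osm* 2.01%. *C1qa*, which macrophages make and the rule did not use, stood at 0.537% of the level in the other Day 3 cells. Of 22 receptors tested against the other Day 3 cells, 10 were at least 2-fold higher and 7 at least 2-fold lower, where 21.8% and 27.4% of all genes were, and 6 of the 10 passed the 50 CPM filter through the members alone and 6 of the 7 through the other cells alone. The receptors of tumour necrosis factor were not higher, with *Tnfrsf1a* at 94.1% and *Tnfrsf1b* at 8.67% of the level in the other cells, nor was *Il1rap*, the second chain of the interleukin 1 receptor, at 70.9%. *Il1r1*, the chain that binds interleukin 1, was at 157 CPM against 24.5 in the other Day 3 cells, and *Osmr* at 205 against 25.2 CPM. *Il6st*, the signalling chain gp130, was at 407 against 78.1 CPM, while *Il6ra*, the chain that binds IL-6, was at 15.4 against 170.1 CPM. Of the 25 receptors listed, 16 were tested against Day 7, with 5 at least 2-fold higher (1 of them through Day 3 alone), 0 at least 2-fold lower and a median log2 ratio of 0.19. Of all genes, 10.4% and 5.97% were so against Day 7. At 20000 to 60000 UMIs the log2 ratios to the other Day 3 cells were 0.33 for *Il1r1*, 0.56 for *Osmr*, 0.89 for *Il6st* and -0.26 for *Il6ra*, all under 2-fold, and -2.28 for *Il1b*, from -6.46. The 5 receptors higher than on Day 7 were *Il1r1*, *Il6st*, *Osmr*, *Il4ra* and *Il13ra1*.

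Neutrophil-attracting chemokines did not share a time course. *Cxcl1* was at 3007 CPM in the members, 2076 on Day 7 and 2916 on Day 14, all above the 750.2 CPM of the other Day 3 cells. *Cxcl2* was at 1069.9, 1522 and 1976 CPM, and at 4367 in the other Day 3 cells. *Cxcl3* was at 149, 48.4 and 28.8 CPM, and at 819 in the other Day 3 cells. In cells of 20000 to 60000 UMIs the log2 ratio to the other Day 3 cells went from 2.003 to 0.98 for *Cxcl1*, from -2.03 to 0.077 for *Cxcl2* and from -2.46 to -0.26 for *Cxcl3*. *Cxcl5* alone of these 4 was more than 10-fold above Day 7. As a share of all UMIs in the Day 3 library, the members held 85.6% of *Cxcl5*, 79.9% of *Cxcl1*, 14.6% of *Cxcl2* and 11.1% of *Cxcl3*, beside 48.1% of all UMIs. They held 95.02% of *Saa3*, 93.2% of *Il6* and 81.4% of *Nos2*.

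The main monocyte chemokines were within 2-fold of their later levels. *Ccl2*, the main monocyte attractant, was at 1028, 779 and 1462 CPM on Days 3, 7 and 14, and *Ccl7* at 1334, 1160.1 and 2069 CPM. *Cxcl12*, which retains stem cells and lymphocytes, was higher on Day 3, at 620.3, 186 and 153 CPM. *Ccl11*, an eosinophil attractant, was lower, at 32.1, 97.5 and 223 CPM. Of 8 genes of this list tested against Day 7, 3 were at least 2-fold higher and 1 at least 2-fold lower, where 10.4% and 5.97% of all genes were. Of the 3 higher genes 2 passed the 50 CPM filter through Day 3 alone, and 1 was *Ccl5*, which rested on 6 cells, while the lower gene, *Ccl11*, passed through Day 7 alone.

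Several genes of plasminogen activation and clotting were higher in the members. Of 9 tested genes, 5 were at least 2-fold higher than on Day 7 and 0 at least 2-fold lower, with a median log2 ratio of 1.32, and against Day 14 the counts were 6 and 0 of 8. Of all genes, 10.4% and 5.97% were so against Day 7, and 22.1% and 9.04% against Day 14. Without *Serpinb2*, by which the cells had been singled out, the counts of higher genes were 4 of 8 and 5 of 7. *F3*, tissue factor, which starts clotting, was at 253, 101 and 112 CPM on Days 3, 7 and 14. *Plat*, the tissue plasminogen activator, was at 797, 444 and 313 CPM. *Plaur*, the urokinase receptor, was at 70.9 CPM in the members and at 231 in the other Day 3 cells. Its log2 ratio to those cells was -1.71, and -0.05 in the shared depth window. Of the higher genes, 2 of the 5 and 3 of the 6 passed the 50 CPM filter through Day 3 alone.

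Proteinases and their inhibitors were mostly within 2-fold of Day 7. *Timp1*, an inhibitor of matrix metalloproteinases, was at 3846 (3818 to 3875) CPM in the members, 760.1 on Day 7 and 469 on Day 14. *Timp2*, a related inhibitor, ran the other way at 369, 1595 and 2019.7 CPM. *Mmp2*, a gelatinase, was at 409, 951 and 796 CPM, and *Mmp3*, stromelysin, at 492, 666 and 938 CPM. Of 11 genes tested against Day 7, 1 was at least 2-fold higher and 2 at least 2-fold lower, with a median log2 ratio of 0.13, where 10.4% and 5.97% of all genes were.

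Provisional matrix and scar matrix genes each held members of both directions. Of 15 genes of the provisional matrix and hyaluronan list tested against Day 7, 6 were at least 2-fold higher, 1 of them through Day 3 alone, and 1 at least 2-fold lower, with a median log2 ratio of 0.78, beside 10.4% and 5.97% of all genes. *Tnfaip6*, which links hyaluronan chains, was at 2603, 1060.0 and 1684 CPM, *Has1*, a hyaluronan synthase, at 1069.6, 472 and 908 CPM, and *Cd44*, the hyaluronan receptor, at 1097, 443 and 276 CPM. *Tnc*, tenascin C, was alike on Days 3 and 7 at 648 and 696 CPM and lower on Day 14 at 164 CPM. In the shared depth window, however, its log2 ratio to Day 7 was -1.35. Of 16 scar matrix genes tested against Day 7, 2 were at least 2-fold higher and 6 at least 2-fold lower, with a median log2 ratio of -0.75. Against Day 14 the counts were 4 and 11 of 18, with a median of -1.19, beside 22.1% and 9.04% of all genes. Of the lower genes, 3 of the 6 and 5 of the 11 (*Eln*, *Mfap4* and *Itgbl1*, with *Cilp* and *Tnmd* against Day 14) passed the 50 CPM filter through the later day alone, so the counts are no support for a direction.

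The 2 scar matrix genes that were at least 2-fold higher than on Day 7 are enzymes. *Lox*, which cross-links collagen, was at 2399 CPM in the members, 643 on Day 7 and 552 on Day 14, and its relative *Loxl2* was at 1422, 500.3 and 249 CPM. *Plod2* and *P4ha1*, which hydroxylate collagen lysines and prolines, were at 972 and 759.9 CPM in the members, 321 and 247 on Day 7, and 80.9 and 145 on Day 14. The chains they act on were lower in the members than later: *Col1a1* was at 23961, 40937 and 52053 CPM and *Col3a1* at 18584, 33083 and 33790.3 CPM. *Postn*, periostin, was at 1366, 4888 and 3427 CPM. *Eln*, elastin, whose log2 ratio to Day 7 was -0.32 in the shared depth window, was at 48.1, 187 and 1405 CPM. *Mfap4*, an elastic fibre protein, was at 35.2, 311 and 1304 CPM. *Cilp*, a matrix antagonist of growth factors, was at 3.16, 46.8 and 508 CPM, and *Itgbl1*, an integrin beta-like secreted protein, at 10.0, 86.5 and 332 CPM.

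Of 10 contractile genes tested against Day 7, 1 was at least 2-fold higher and 4 at least 2-fold lower (10.4% and 5.97% over all genes). The median log2 ratio was -0.63, and -1.26 in the shared depth window. Of the 4 lower genes, 3 passed the 50 CPM filter through Day 7 alone. Against Day 14 the counts were 5 and 1 of 8 (22.1% and 9.04% over all genes), and 3 of the 5 passed through Day 3 alone. The median against Day 14 was 1.39, and 0.88 in the shared depth window. *Acta2*, the smooth muscle actin of myofibroblasts, was at 133 CPM in the members, 269.5 CPM on Day 7 and 26.5 CPM on Day 14. Its Day 3 UMIs were concentrated, with 72.7% in the highest 10% of the members and 14480 CPM in 1 cell, and 163 members had none. *Actn1*, the actin cross-linker alpha-actinin, was higher in the members at 259.9, 102 and 26.8 CPM.

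Most glycolysis and hypoxia genes were higher in the members. Of 24 tested (of 29 listed), 18 were at least 2-fold higher than on Day 7 and 0 at least 2-fold lower, with a median log2 ratio of 1.53, and against Day 14 the counts were 21 and 0 of 24 with a median of 2.59, beside 10.4% and 5.97% of all genes against Day 7 and 22.1% and 9.04% against Day 14. Of the higher genes, 3 of the 18 and 10 of the 21 passed the 50 CPM filter through Day 3 alone. *Slc16a3*, the lactate exporter, was at 338 (330.0 to 347) CPM in the members, 57.1 on Day 7 and 7.73 on Day 14. *Pgk1*, which makes ATP in glycolysis, was at 803, 136 and 55.0 CPM, *Eno1*, enolase, at 358, 76.6 and 25.8 CPM, and *Bnip3*, a hypoxia-induced mitophagy receptor, at 202, 56.0 and 20.5 CPM. *Hk2*, hexokinase, differed little at 632, 522 and 519 CPM. Against the other Day 3 cells 5 of 24 were at least 2-fold higher and 1 at least 2-fold lower, where 21.8% and 27.4% of 4039 genes were. *Pgk1* stood at 721 CPM, *Eno1* at 293 CPM and *Slc16a3* at 364 CPM in the other Day 3 cells, close to the members. The median log2 ratio of the list against them was 0.29, with -0.09 over all tested genes. The 5 were *Hk2*, *Adm*, *P4ha1*, *P4ha2* and *Plod2*. The 1 was *Vegfa*, at 206 CPM in the members and 489.8 in the other Day 3 cells. Its log2 ratio to those cells was -1.25, and -0.13 in the shared depth window.

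**Figure D3:**
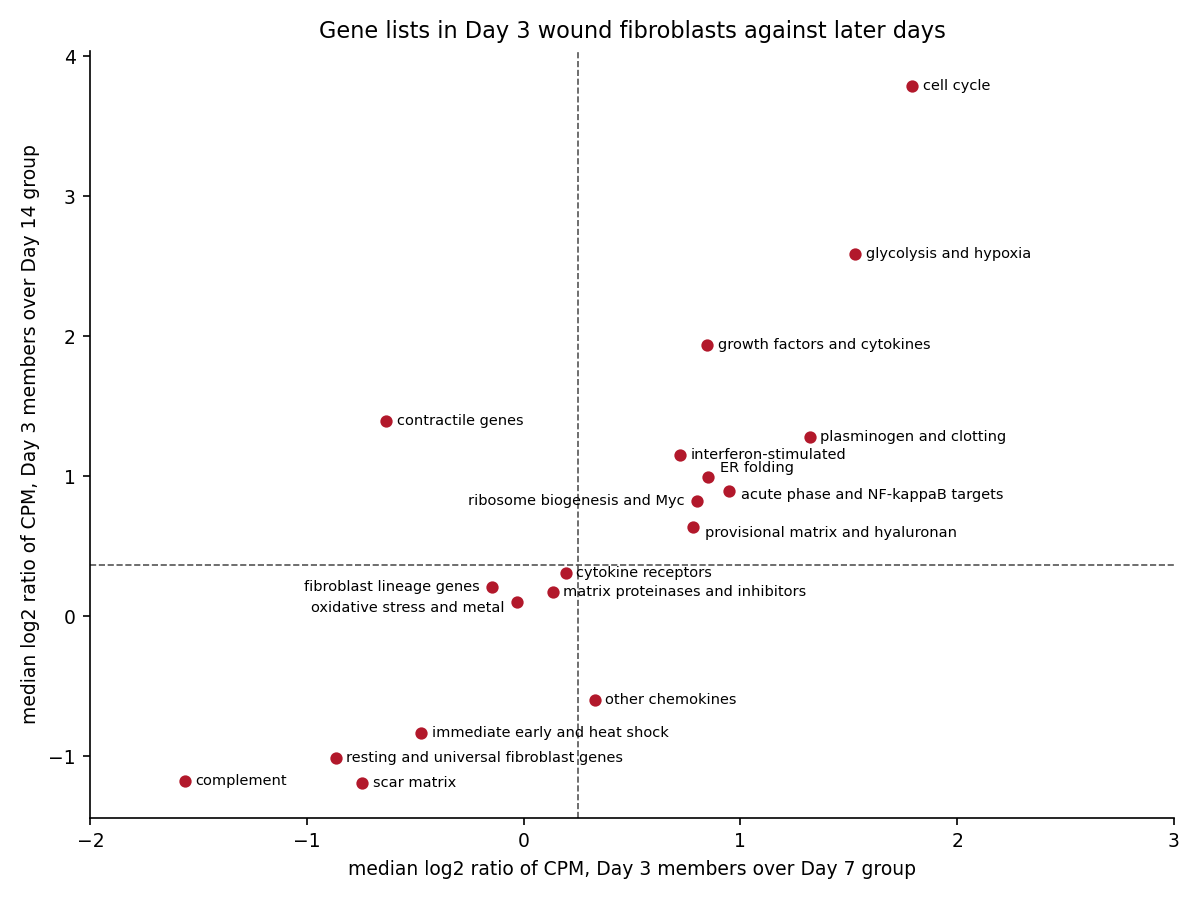
Median log2 ratio of CPM for each gene list with at least 5 tested genes in both comparisons (the genes of the rule left out), Day 3 members over the Day 7 group (horizontal) and over the Day 14 group (vertical); dashed lines mark the medians of all tested genes, 0.25 and 0.37. The 2 axes share the Day 3 members. Glycolysis and hypoxia genes lie at 1.53 and 2.59 and scar matrix genes at -0.75 and -1.19. Cell cycle genes, whose direction against Day 7 turned in the shared depth window, lie at 1.79 and 3.79.

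Cell cycle genes were higher in the sums over all cells. Of 17 tested against Day 7, 14 were at least 2-fold higher and 0 at least 2-fold lower (median log2 ratio 1.79), where 10.4% and 5.97% of all genes were. Against Day 14 the counts were 17 and 1 of 18 (median 3.79), beside 22.1% and 9.04% of all genes. *Top2a*, a topoisomerase of dividing cells, was at 188, 43.6 and 5.02 CPM. These counts are no support for a direction, since 14 of the 17 genes and 17 of the 18 passed the 50 CPM filter through Day 3 alone. In cells of 20000 to 60000 UMIs on both days the list median against Day 7 was -0.53 and the log2 ratio of *Top2a* -0.99, so the direction turned. Within the members the share of cell cycle UMIs also went with depth, with a Spearman rho of 0.48 over 356 cells of at least 10000 UMIs. *Top2a* was at 31.8, 68.3, 94.5 and 337 CPM in 4 equal groups of members of rising depth.

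Some genes of protein folding and of metal handling were higher. Of 15 ER folding genes tested against Day 7, 6 were at least 2-fold higher (2 of which passed the filter through Day 3 alone) and 0 at least 2-fold lower (median log2 ratio 0.85), where 10.4% and 5.97% of all genes were, among them *Hsp90b1* and *Calr*, chaperones of the ER, at 2569 and 1780.0 CPM in the members and 1029 and 669.9 on Day 7. Of 10 tested oxidative stress and metal genes, 3 were at least 2-fold higher and 1 lower, beside the same shares, and their median of -0.03 was below that of all genes. *Mt2*, a metallothionein that binds zinc, was at 5327, 1422 and 1249 CPM, and *Slc39a14*, a zinc and iron importer, at 482, 152 and 66.8 CPM. *Ptgs2*, the inducible cyclooxygenase, was at 831, 301 and 241 CPM, with 1432 CPM in the other Day 3 cells. Its log2 ratio to those cells was -0.78, and 1.06 in the shared depth window. *Ptgis*, prostacyclin synthase, was at 314, 101 and 41.1 CPM, with 42.3 CPM in the other Day 3 cells. Immediate early and heat shock genes, which tissue dissociation can induce, held 2 genes at least 2-fold higher (1 of them through Day 3 alone) and 5 at least 2-fold lower of 13 tested against Day 7, where 10.4% and 5.97% of all genes were, with *Atf3* at 119.5, 419 and 762 CPM.

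Of 9 growth factors and cytokines tested against Day 7 (of 29 listed), 4 were at least 2-fold higher and 1 at least 2-fold lower, where 10.4% and 5.97% of all genes were. *Csf3*, 1 of the 4, passed the 50 CPM filter through Day 3 alone. The median log2 ratio was 0.85, which was -0.01 in the shared depth window. *Fgf7*, a keratinocyte growth factor, was at 131, 53.5 and 34.1 CPM on Days 3, 7 and 14. *Ereg*, a ligand of the EGF receptor, was at 134, 65.5 and 9.34 CPM, and *Angptl4*, a secreted inhibitor of lipoprotein lipase, at 374, 121 and 56.8 CPM. *Igf1*, insulin-like growth factor 1, was lower at 94.3, 361 and 529 CPM. *Tgfb2* was alike on all 3 days at 128, 138 and 123 CPM, and *Tgfb1* was mainly in the other Day 3 cells, at 153 against 19.5 CPM.

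Resting and universal fibroblast genes were within 2-fold or lower before depth was limited to the shared window. Of 18 tested against Day 7, 0 were at least 2-fold higher and 8 at least 2-fold lower (median log2 ratio -0.87, and 10.4% and 5.97% over all genes). Against Day 14 the counts were 0 and 9 of 18, beside 22.1% and 9.04% of all genes. Of the lower genes, *Scara5*, *Mgp* and *Apod* passed the 50 CPM filter through the later day alone in both comparisons. *Dpt*, dermatopontin, was at 624, 1882 and 1724 CPM, and *Clec3b*, tetranectin, at 58.9, 349.5 and 729 CPM. *Pi16*, which marks a fibroblast pool found in many tissues, was at 262, 264 and 277 CPM, but in cells of 20000 to 60000 UMIs its log2 ratio was 1.73 to Day 7 and 1.03 to Day 14. Of 10 complement genes, 0 were at least 2-fold higher and 6 at least 2-fold lower than on Day 7, beside 10.4% and 5.97% of all genes. Of those 6, *C4b* and the macrophage genes *C1qa*, *C1qb* and *C1qc* passed the filter through Day 7 alone, so the count is no support for a direction.

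Some of the ratios to Day 7 differed in the shared depth window, where fewer and other cells were compared. Depth was not matched within it, as the deepest cell of the Day 7 group held 40890 UMIs. The counts here cover only genes picked for discussion, a part of the named genes. In cells of 20000 to 60000 UMIs, 57 of the 69 such genes that were 2-fold apart from Day 7 stayed so, and 66 of 67 against Day 14. Against Day 7, *Icam1* went from -1.06 to -0.36 on the log2 scale, *Ccl11* from -1.60 to -0.50, *Eln* from -1.96 to -0.32, *Actn1* from 1.35 to 0.53 and *Lbp* from -1.09 to 0.11. *Irf1*, *Mmp2*, *Cd44*, *Loxl2*, *Calr* and *Odc1*, a polyamine enzyme, moved less, to -0.87, -0.80, 0.96, 0.99, 0.99 and 0.85. *Tnc* went from 1.98 to 0.52 against Day 14, and *Acta2* from -1.02 to -2.25 against Day 7. The list median against Day 7 went to -0.54 for complement genes, to -0.10 for resting fibroblast genes and to -0.01 for growth factors and cytokines, from -1.57, -0.87 and 0.85. For glycolysis and hypoxia genes it was 1.16 and for scar matrix genes -0.62. *Il6*, *Ptx3*, *Csf3* and *Thbd* had larger ratios at this depth, of 3.39, 2.22, 5.11 and 4.004, and the ratio of *Ccl5* was 1.29.

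Against the other Day 3 cells the largest ratios outside the genes of the rule belonged to *Clec3b*, *Serpina3n*, *Sfrp4*, *Lbp*, *Chl1*, *Ccn5*, *Scn7a*, *Fndc1*, *Saa3*, *Pcsk5*, *Svep1* and *Pi16*. *Serpina3n*, an acute phase proteinase inhibitor, was at 176 CPM in the members and 1.59 in the other Day 3 cells, a log2 ratio of 6.79 (6.23 to 7.40). *Lbp*, which carries bacterial lipopolysaccharide to its receptor, was at 97.1 against 1.78 CPM. *Chl1*, a neural adhesion molecule, was at 292 against 5.40 CPM, and at 76.1 and 9.23 CPM in the later fibroblast groups. *Pcsk5*, a proprotein convertase, was at 852 against 24.3 CPM. In the Day 7 and Day 14 groups *Serpina3n* was at 111 and 100.3 CPM, at log2 ratios of 3.21 and 2.85 to the other cells of those libraries, and *Lbp* at 207 and 122 CPM, at log2 ratios of 2.75 and 2.38.

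The other Day 3 cells held more than leukocytes. Of them, 46 had 20000 to 60000 UMIs, and their median share of the 8 fibroblast genes was 0.889%, with 20 cells at 1% or more and 9 cells with at least 0.3% myeloid UMIs. Most ratios to the other cells were smaller at this depth. Of 40 genes picked for discussion that were 2-fold apart, 23 stayed so. Besides those given above, *Ptgis* went to 0.24 from 2.90, *Cxcl5* fell to a log2 ratio of 0.48 and *Nos2* to -0.35, below the other cells. *Saa3* went from 5.31 to 5.19, *Serpina3n* from 6.79 to 5.03, *Lbp* from 5.77 to 4.84, *Chl1* from 5.76 to 3.82 and *Pcsk5* from 5.13 to 2.94. *Ptx3* went from 4.47 to 2.24, *Il6* from 3.91 to 1.53, *Serpinb2* from 3.37 to 1.60 and *Tgfb1* from -2.97 to -1.93, all still at least 2-fold apart. *Cxcl5* and *Nos2* were thus less than 2-fold above these 46 cells. Against the 2011 myeloid Day 3 cells alone the log2 ratios were 5.52 (5.45 to 5.60) for *Saa3*, 6.75 (6.56 to 6.94) for *Cxcl5*, 5.85 (5.67 to 6.04) for *Serpinb2*, 6.27 (6.10 to 6.46) for *Il6* and 3.72 (3.47 to 3.98) for *Nos2*.

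Among themselves the members differed widely in inflammatory genes and little in collagen. The rule asked for a minimum share of 8 genes, and *Col1a2* made 24079 of their 30523 CPM in the members. Cells low in *Col1a2* were thus left out beforehand, and the spread of collagen is not free of the rule. *Saa3* ran from a lower quartile of 198 CPM through a median of 2353 to an upper quartile of 9741 CPM per cell, with 24 cells at 0 UMIs, and the highest 10% of the cells held 47.6% of its UMIs. *Cxcl5* had quartiles of 232 and 3300 CPM around a median of 1345, and *Il6* of 446 and 2797 around 1384. *Nos2* had a median of 12.1 CPM, 176 cells without a UMI and 63.6% of its UMIs in the highest 10%. *Col1a1* had quartiles of 18145 and 28780 CPM and *Lox* of 1594 and 2917 CPM, with no cell at 0 for either. *Saa3* was at 7809, 9798, 6589 and 3432 CPM in 4 equal groups of members of rising depth, against 23711, 26307, 25178 and 22208 CPM for *Col1a1*.

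**Figure D4:**
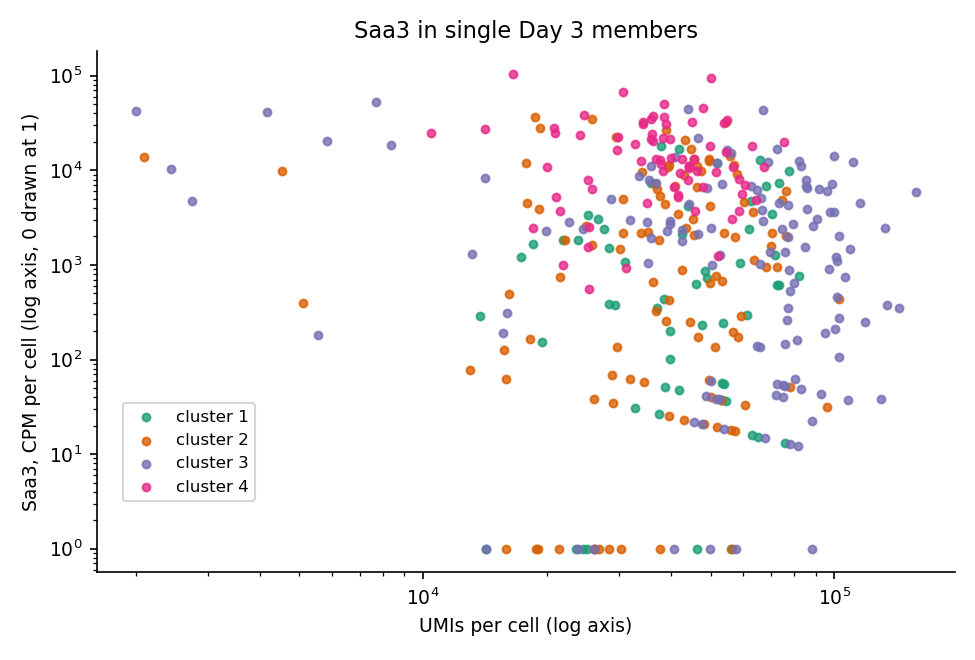
*Saa3* per cell (CPM, log axis with cells at 0 drawn at 1) against UMIs per cell (log axis) for the 367 Day 3 members, coloured by cluster. *Saa3* runs over more than 3 orders of magnitude within 1 library, and most cluster 4 cells lie high at middle depths.

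Clustering of the 367 members gave 4 clusters, which are described by their leading genes. Cluster 1, with 58 cells, led with interferon-induced genes such as *Cxcl9*, *Ifit3*, *Rsad2* and *Isg15*. Cluster 2, with 108 cells, led with *Ctss* and *Apoe*, which are macrophage genes, and with *Igfbp3*, *Inhba* and *Ndufa4l2*, and its *Lyz2* was at 33.7 CPM against 10.7 to 17.4 CPM in the other clusters. Cluster 3, with 128 cells or 34.9%, led with genes of division such as *Nusap1*, *Aspm* and *Top2a*, and its median of 67561 UMIs was the highest. Cluster 4, with 73 cells, led with *Scara5*, *Cxcl13*, *Pi16*, *Lbp*, *Clec3b* and *C3*, genes of resting adventitial fibroblasts and of complement, and its median was 38474 UMIs. These leading genes defined the clusters and are no separate finding.

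Levels of the inflammatory genes by cluster are a description of the same cells. *Saa3* was at 17866 CPM in cluster 4 against 2608, 4332 and 3818 in clusters 1, 2 and 3. *Il6* was at 3376 CPM in cluster 4 against 1698, 1462 and 1349, and *Csf3* at 343 against 95.2, 104 and 50.1. *Cxcl5* was more even at 2291, 2877, 1814 and 2117 CPM in clusters 1 to 4, and *Nos2* was highest in cluster 1 at 301 CPM and lowest in cluster 4 at 94.1 CPM. *Acta2* was at 8.01 CPM in cluster 4 against 197, 136 and 155 in the others. *Pgk1* was at 1064 CPM in cluster 2 and 504 in cluster 4. Cluster 4, with the most *Saa3*, *Il6* and *Csf3* of the 4 clusters, had the least *Acta2* and *Pgk1*.

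**Figure D5:**
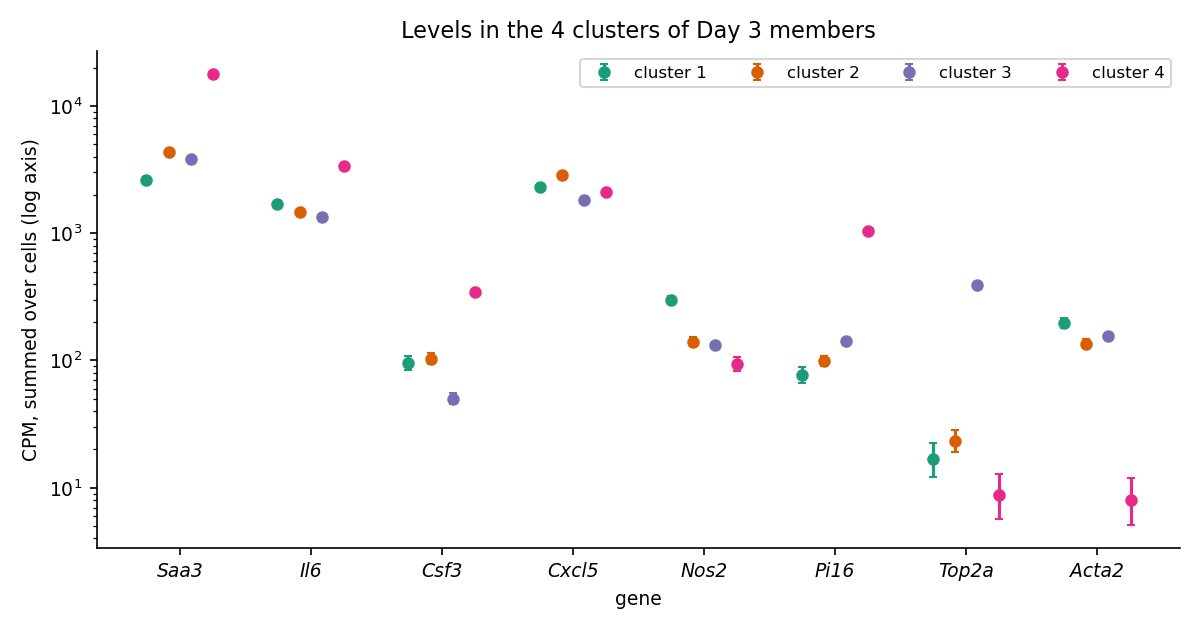
CPM (log axis) of 8 genes in the 4 clusters of Day 3 members, summed over the cells of each cluster; bars are exact Poisson 95% intervals. Cluster 4 is highest in *Saa3*, *Il6*, *Csf3* and *Pi16* and lowest in *Acta2*, cluster 3 highest in *Top2a*, and *Cxcl5* lies between 1814 and 2877 CPM in all 4.

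Over 356 members of at least 10000 UMIs the share of acute phase UMIs went with that of metal and oxidative stress genes (Spearman rho 0.59), of scar matrix genes (0.49) and of resting fibroblast genes (0.42), and against that of contractile genes (-0.55) and cell cycle genes (-0.43). The CXC chemokines went with provisional matrix genes (0.49). A few genes weigh heavily in these shares. In the sum over the members *Saa3* made 5971 of the 15306 CPM of the acute phase list. *Mt1* and *Mt2* made 5414 and 5327 of the 15219 CPM of the oxidative stress and metal list. No rho was made without these genes. The shares of 1 cell sum to a fixed total and all cells come from 1 library, so these values are a description.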

How the data were processed

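RNA of single cells was captured with a 10x Genomics 3′ kit from 1 library per day. Per the submitters' processing notes the authors aligned and counted reads with Cell Ranger 6.0.0 against mm10, and deposited raw UMI counts per gene and barcode; the gene annotation is not given in the sources used here. Symbols were matched for 32158 of 32285 gene identifiers. *Aldoa* and *Ddit3* were left out because each symbol belongs to 2 identifiers, and *Mmp1a* was not analysed here.

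Counts were summed over the cells of a group in Python 3.11.15 with numpy 2.4.6, scipy 1.17.1 and pandas 2.3.3, and divided by the group's total to give CPM. Intervals were exact Poisson for levels, exact conditional binomial for ratios and Clopper-Pearson for shares. PCR and cell sampling add error that they do not hold. On simulated Poisson counts the ratio intervals held the true value for 95.1% to 95.8% of unchanged genes and 93.0% to 98.0% of changed genes. The intervals are built for such counts, which hold no spread between cells. This checks the calculation only and not the intervals on the measured cells. A gene was tested for size at 50 CPM in either group, and "2-fold apart" is a size and not a test. A count of 0 was set to 3 UMIs for a ratio. Clusters were made with scanpy 1.11.5, and no doublets were removed except as an alternative. Genes were named from the lists, from the largest and smallest ratios (12 each against Day 7, 6 each against Day 14, the 12 largest against other Day 3 cells) and from the leading genes of clusters. The members and the lists were chosen with earlier results of these data known. Alternatives varied the gate, depth, mitochondrial limit, doublets, scaling, filter, fold and comparison cells. Leaving out cells of at least 0.2% cell cycle UMIs, leaving out shared barcodes, and comparing with myeloid Day 3 cells alone were chosen after seeing the data. Some genes are not reported here.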

Additional observations from a re-analysis of the deposited data

Results flagged for a closer look

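The contrast of fibroblasts with the other cells of the same library changed direction between days for several genes, and with 1 library per day none of these differences was tested. *Ccl5* stood at a log2 ratio of 1.47 on Day 3, -2.96 on Day 7 and -4.07 on Day 14, and its Day 3 level rested on 6 cells. For the other 18 genes the opposite direction was on Day 14. Of these, 6 genes of various roles were higher in Day 3 fibroblasts and lower in Day 14 fibroblasts than in the other cells of their library, with *Serpinb2* at 3.37 and -2.85, *Csf3* at 2.26 and -2.44, *Car4* at 2.75 and -2.47, *Lmcd1* at 3.67 and -3.59, *Chl1* at 5.76 and -1.74 and *Igfbp3* at 2.16 and -1.90. Genes of division did the same, although the median of the cell cycle genes against other Day 3 cells turned from 1.53 to -1.30 at 20000 to 60000 UMIs, with *Mki67* at 1.89 and -3.15, *Top2a* at 1.82 and -3.12, *Pclaf* at 1.73 and -2.75, *Cdk1* at 1.63 and -2.17, *Ccna2* at 1.86 and -2.42, *Birc5* at 1.88 and -2.48, *Ube2c* at 1.75 and -2.79, *Cenpf* at 1.88 and -2.38, *Tpx2* at 1.69 and -2.72, *Stmn1* at 1.09 and -3.04 and *Prc1* at 1.96 and -2.15. *G0s2*, a lipolysis inhibitor that neutrophils also make, went from -3.74 to 1.89. The CPM filter for tested genes was not applied on the Day 14 side. By the levels given above, *Serpinb2*, *Csf3*, *Car4*, *Lmcd1*, *Chl1* and *Top2a* were all below that filter in the Day 14 fibroblasts. *Car4* was the scarcest of them there, and its Day 14 ratio rests on few UMIs.

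Barcodes that the limits on UMIs and mitochondrial share left out also held UMIs of the inflammatory genes. Whether these UMIs were free RNA was not tested. In 33 Day 3 barcodes under 2000 UMIs (median 710) that met both limits on marker genes, *Saa3* stood at 15064 CPM, *Cxcl5* at 1272 CPM and *Serpinb2* at 536 CPM. These 33 barcodes held 29872 UMIs in all, so the levels rest on 450, 38 and 16 UMIs in that order. *Nos2* had 3 UMIs there. In 31 such barcodes with over 10% mitochondrial UMIs (median 4876 UMIs), *Saa3* stood at 9168 CPM, *Cxcl5* at 1411 CPM, *Serpinb2* at 579 CPM and *Nos2* at 75.1 CPM.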

How the results depend on the processing

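No paired analysis was possible because each day was 1 library, and no replicate could be left out. Depth limits the genes at few UMIs, and a day cannot be told apart from its library. The share of Day 3 cells in the gate, 12.3%, was 6.09% with 3.0% fibroblast UMIs, 9.71% from 1000 UMIs and 21.7% from 5000 UMIs. Counts higher and lower, 333 and 191 against Day 7, were 758 and 458 at 10 CPM, 5399 and 2393 with no filter and 48 and 59 at 4-fold. Against Day 14, 720 and 295 were 469 and 444 by the median of ratios, 1813 and 700 at 10 CPM, 6984 and 2990 with no filter and 171 and 112 at 4-fold. Against other Day 3 cells, 879 and 1106 were 449 and 720 with the 3.0% gate, 283 and 345 at 20000 to 60000 UMIs, 2005 and 2018 at 10 CPM, 5091 and 4654 with no filter and 471 and 648 at 4-fold. Direction turned for *Nos2* against other Day 3 cells (-0.35 with the 3.0% gate, which leaves members among the other cells, and -0.35 at 20000 to 60000 UMIs). At that depth it also turned for *Top2a* (-0.99), *Lbp* (0.11) and the cell cycle median (-0.53) against Day 7, and against other Day 3 cells for *Cxcl2* (0.077) and the medians of contractile genes (-0.62), cell cycle genes (-1.30) and neutrophil markers (0.50), and apart from the gate the cause was not tested. Of 4774 values of lists and of genes picked for discussion, 75 changed sign, 9 of them at least 2-fold apart at first, which are those given here. Such genes at least 2-fold apart kept that under every alternative in 53 of 69 cases against Day 7, 64 of 67 against Day 14 and 23 of 40 against other Day 3 cells. These counts leave out the other named genes. Scaling without the 50 most abundant genes moved the median of all genes by -0.18 (Day 7) and -0.19 (Day 14), and the median of ratios by -0.20 and -0.28. Leaving out cells with 1% cell cycle UMIs removed 0 members.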

Other observations

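The members held little *Arg1*, the arginase of wound macrophages. *Arg1* stood at 7.53 CPM in the members and at 1047 CPM in the other Day 3 cells, a log2 ratio of -7.12 that was -3.73 at 20000 to 60000 UMIs. *Odc1*, which makes polyamines, stood at 117 CPM in the members against 223 CPM, and at 55.3 CPM on Day 7.

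Interferon-stimulated genes were mixed. Of 8 tested against Day 7, 3 were at least 2-fold higher and 1 lower, with a median log2 ratio of 0.72, where 10.4% and 5.97% of all genes were. All 3 (*Isg15*, *Ifit1* and *Rsad2*) passed the 50 CPM filter through Day 3 alone, so the count is no support for a direction, and against the other Day 3 cells 0 of 11 were at least 2-fold higher and 5 lower, where 21.8% and 27.4% of all genes were. The list median against those cells was -0.93, and -0.12 at 20000 to 60000 UMIs. *Isg15*, a ubiquitin-like modifier, stood at 129 CPM in the members, 41.6 CPM on Day 7 and 156 CPM in the other Day 3 cells, and *Ifit1*, which binds viral RNA, at 110 CPM against 17.9 and 62.1 CPM in the same order. Of 12 ribosome biogenesis and Myc genes tested against Day 7, 1 was at least 2-fold higher and 0 at least 2-fold lower, where 10.4% and 5.97% of all genes were. The 1 was *Myc*, a growth regulator, at 334 CPM in the members and 124 CPM on Day 7. With 30.1 CPM in the other Day 3 cells, its log2 ratio to these was 3.48, and 1.90 at 20000 to 60000 UMIs. The list median was 0.80 against Day 7.

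*Csf1r*, the receptor that macrophages need to survive, stood at 43.0 CPM in the members, 28.3 CPM on Day 7 and 22.7 CPM on Day 14, and at 331 CPM in the other Day 3 cells, a log2 ratio of -2.94 that was -0.57 at 20000 to 60000 UMIs. The other macrophage markers were scarcer relative to those cells, with *Adgre1* at 2.56 against 290 CPM and *Cd68* at 2.84 against 193 CPM, at log2 ratios of -4.61 and -5.69 at that depth. *Mt1* and *Mt2*, both metallothioneins, stood at 5414 and 5327 CPM in the members and 933 and 548 CPM in the other Day 3 cells, at log2 ratios of 2.54 and 3.28 that were 1.26 and 1.21 at 20000 to 60000 UMIs, whereas *Ftl1* and *Fth1*, the ferritin chains, stood at 654 and 2076 CPM against 3104 and 8542 CPM, and at that depth their log2 ratios were -1.52 and -0.61.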
